A study of Mus musculus with 4 samples.

Results

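The signal recognition particle (SRP), its membrane receptor and 3 further binders of small noncoding RNA were measured in Neuro2A cells depleted of 4.5SH RNA. The genes were Srp9, Srp14, Srp19, Srp68, Srp72, Srpr, Srprb, Ssb (which encodes the La protein), Larp7 and Ncl (nucleolin). A probe set was taken where the array annotation gave 1 gene symbol and that symbol was one of these names. This found 26 probe sets of 10 genes, among 34945 probe sets of 18193 genes. Of the 26, 25 passed a filter on dim signal, a mean over the 4 arrays of at least 16.9.

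Neuro2A is a mouse neuroblastoma line, and 4.5SH is a small RNA of rodents, made by RNA polymerase III and related to the B1 repeats. The study compared 2 arrays of 4.5SH knockdown cells with 2 arrays of control cells, to find genes with antisense B1 elements on which 4.5SH acts. Per the labels, antisense oligonucleotides were transfected at 30 nM and poly(A)+ RNA of the cytoplasmic fraction was hybridised, so the levels are those of that fraction, and fewer cells and less RNA per cell cannot be told apart. The labels do not name the oligonucleotide of the control cells, so loss of 4.5SH and any further action of an oligonucleotide cannot be told apart. The labels call the replicates biological without naming separate transfections, and each p-value then rests on the spread between these samples alone, which may be technical.

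The SRP is a ribonucleoprotein that recognises signal peptides as they leave the ribosome and brings the ribosome to the endoplasmic reticulum (ER), where the SRP receptor takes over. Its RNA, called 7SL, gave rise to the B1 repeats of rodents and the Alu repeats of primates, and the Srp9 and Srp14 proteins bind the Alu domain of that RNA as a dimer. The La protein binds the uridine-rich end of new RNA polymerase III transcripts, Larp7 is a La-related protein that holds the 7SK RNA, and nucleolin is an abundant RNA-binding protein of the nucleolus.

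Srp14 fell, whereas Ssb, Larp7 and Ncl each rose at 2 or more probe sets. Of the 25 tested probe sets, 7 were higher and 4 lower in the knockdown at an adjusted p under 0.05 (limma, adjusted over all 22525 tested probe sets), and 14 did not pass. Over all tested probe sets 35.6% passed, 9.76% as higher and 25.8% as lower. The 4 lower ones were the 4 probe sets of Srp14, and the 7 higher ones were 2 of 4 for Ssb, 2 of 2 for Larp7 and 3 of 5 for Ncl. The groups did not overlap at 22 of the 25 probe sets, 12 higher and 10 lower, against 66.9% of all tested probe sets, 22.6% higher and 44.3% lower. The median log2 fold change, knockdown over control on the scale log2(signal + 16), was -0.15 over the 14 tested probe sets of the SRP and its receptor and 0.37 over the 11 of Ssb, Larp7 and Ncl, beside -0.11 over all tested probe sets. With 2 arrays against 2 an exact permutation test cannot go below p = 0.333, so the p-values depend on limma's pooling of variance over probe sets. Without 4.5SH_KD replicate 2 the higher probe sets were 3 (Ncl 1415773_at, Larp7 1429558_a_at and Srprb 1421012_at), and the 4 of Srp14 stayed lower.

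**Figure D1:**
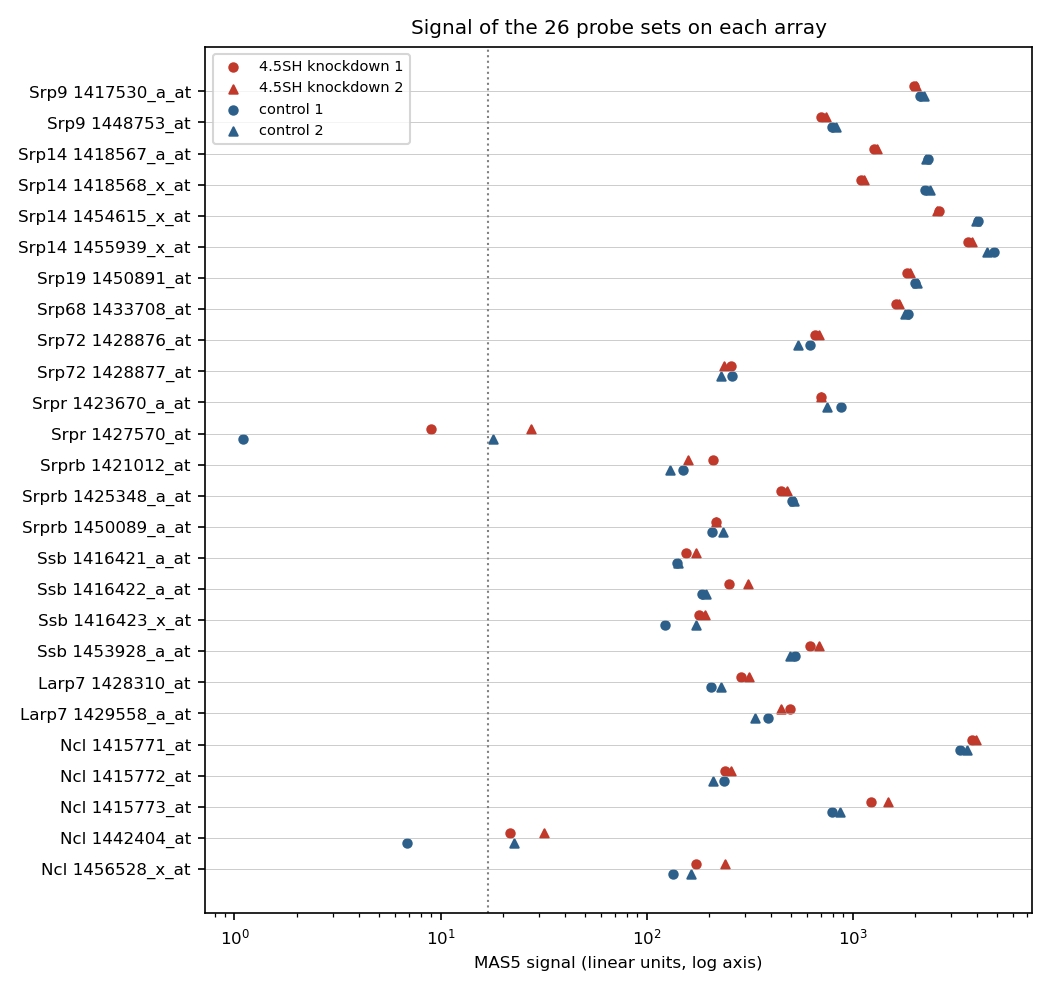
MAS5 signal (horizontal, log axis) of the 26 probe sets on each array, red for the 2 knockdown arrays and blue for the 2 control arrays, with the filter at 16.9 as a dotted line. The Srp14 rows have the knockdown arrays to the left of the control arrays, and the Ssb, Larp7 and Ncl rows have the knockdown arrays to the right except where Ncl 1442404_at overlaps.

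Srp14, a subunit of the Alu-domain dimer, was lower at each of its 4 probe sets, by very different amounts. At 1418568_x_at the signal was 1092.2 and 1136.7 on the knockdown arrays, against 2242.7 and 2369.7 on the control arrays. At 1418567_a_at it was 1263.6 and 1309.8 in the knockdown, against 2303 and 2260.5 in the control. Both knockdown arrays thus lay far below both control arrays, while the arrays of 1 group differed little. The log2 fold change was -1.04 ± 0.06 at 1418568_x_at (SE, limma adjusted p = 1.10e-07) and -0.82 ± 0.06 at 1418567_a_at (adjusted p = 5.33e-07). Among all tested probe sets these held ranks 43 and 103 by p.

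The other 2 probe sets of Srp14 were brighter and fell less. At 1454615_x_at the signal was 2612.5 and 2555.1 in the knockdown, against 4035.8 and 3948.1 in the control, a log2 fold change of -0.62 ± 0.05 (SE, limma adjusted p = 1.24e-06). At 1455939_x_at it was 3625.6 and 3796.7 in the knockdown, against 4863.3 and 4474.2 in the control, a log2 fold change of -0.33 ± 0.05 (SE, limma adjusted p = 0.000319). In mean signal the changes were -51.7%, -43.6%, -35.3% and -20.5%, from the deepest fall to the shallowest. The 95% interval of the shallowest, from -0.44 to -0.21 in log2, did not meet that of the deepest, from -1.17 to -0.90, so a single size for Srp14 cannot be given. Of the 4 probe sets, 3 end in _x_at, the array maker's mark for probes that may also bind other transcripts, and 1418567_a_at is the only one without it. The mean of the 4 gave -0.70 ± 0.05 (limma adjusted p = 2.73e-07, over 11814 genes). Without the intensity trend 1455939_x_at did not pass (limma adjusted p = 0.0728), and the other probe sets did.

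The promoter of Srp14 is shown because its probe sets fell furthest of all the members. In GRCm38.p6 it is chr2:118479647-118479946 on the minus strand, from 250 bases before the RefSeq start to 50 after it. Capitals mark matches on either strand to 5 short motifs picked with the members' values known, which were the TATAAA box, the CCAAT box, the GGGCGG box, the E-box CACGTG and the cyclic AMP response element TGACGTCA.
Srp14: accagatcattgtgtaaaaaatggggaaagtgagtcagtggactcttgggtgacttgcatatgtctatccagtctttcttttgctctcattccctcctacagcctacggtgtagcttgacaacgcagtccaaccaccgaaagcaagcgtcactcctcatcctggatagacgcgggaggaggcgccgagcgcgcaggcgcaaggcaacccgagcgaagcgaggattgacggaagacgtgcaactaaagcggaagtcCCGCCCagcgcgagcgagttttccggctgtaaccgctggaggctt
The window held 1 match, to the GGGCGG box on the opposite strand, which 35.7% of 32851 RefSeq windows of this length also hold.

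Srp9, the other subunit of the Alu-domain dimer, had 2 probe sets, neither of which passed. At 1417530_a_at the signal was 1985.1 and 2016.6 in the knockdown, against 2127 and 2225.9 in the control. At 1448753_at it was 702.6 and 741.1 in the knockdown, against 792.6 and 830.5 in the control. Both had their knockdown arrays below their control arrays, with log2 fold changes of -0.12 ± 0.06 and -0.17 ± 0.08 (SE), close to the median of all tested probe sets. The limma adjusted p was 0.122 and 0.106, and the intervals ran from -0.24 to 0.0029 and from -0.33 to -0.0036. The Srp9 intervals lay wholly above those of the 3 deepest Srp14 probe sets, and the difference between the genes was not tested.

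Srp19 and Srp68, which build the other end of the particle, gave values much like those of Srp9. Srp19 helps to load the signal-peptide binding subunit Srp54 onto the RNA, and its only probe set read 1822.4 and 1892.1 in the knockdown, against 1998.4 and 2040.3 in the control (log2 fold change -0.12 ± 0.06, limma adjusted p = 0.127). Srp68 binds the RNA together with Srp72, and its only probe set read 1611.2 and 1681.2 in the knockdown, against 1857.9 and 1800.2 in the control (-0.15 ± 0.06, limma adjusted p = 0.0667). The groups did not overlap at either, and neither passed. Taken 1 value per gene, as the mean of its probe sets, Srp68 passed at the same -0.15 (limma adjusted p = 0.0422, over 11814 genes). Its SE in that fit was 0.055, against 0.060 in the main fit.

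Srp72, the partner of Srp68, was not lower. Its probe set 1428876_at read 652.2 and 688.7 in the knockdown, against 622.8 and 541.3 in the control, and 1428877_at read 257.3 and 238.2 in the knockdown, against 259.3 and 229.5 in the control. The first had no overlap between the groups, with the knockdown above, and the arrays of the second were mixed. The log2 fold changes were 0.20 ± 0.09 and 0.02 ± 0.11 (limma adjusted p = 0.0890 and 0.908), so neither passed. Without Control replicate 1, 1428876_at passed as higher (0.30, limma adjusted p = 0.0368), and it also did with quantile scaling (0.39, limma adjusted p = 0.00215). It was at 0.10 without Control replicate 2 (limma adjusted p = 0.470) and 0.06 with spike-in scaling (limma adjusted p = 0.718).

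Among the receptor subunits, Srpr, the GTPase that docks with the SRP, had 1 tested probe set, and Srprb, the subunit that anchors it in the ER membrane, had 3. Srpr 1423670_a_at read 697.6 and 698.5 in the knockdown, against 875 and 750.2 in the control, with a log2 fold change of -0.21 ± 0.08 (limma adjusted p = 0.0675). The other probe set of Srpr, 1427570_at, was below the filter, with 9 and 27.3 in the knockdown against 1.1 and 18 in the control, so it was not tested. The knockdown lay below the control at the bright Srpr probe set, and the dim one overlapped. Srpr passed as lower without Control replicate 2 (-0.32, limma adjusted p = 0.0177), with spike-in scaling (-0.35, limma adjusted p = 0.00973) and as the mean per gene (limma adjusted p = 0.0463). It was at -0.10 without Control replicate 1 (limma adjusted p = 0.471) and -0.03 with quantile scaling (limma adjusted p = 0.785).

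The 3 probe sets of Srprb did not point one way. At 1421012_at the signal was 210.5 and 159 in the knockdown, against 150.8 and 129.5 in the control, the knockdown above. At 1425348_a_at it was 446.4 and 476.9 in the knockdown, against 507.7 and 516.1 in the control, the knockdown below. At 1450089_a_at it was 218 and 216.5 in the knockdown, inside the control values of 207.6 and 234.3. Log2 fold changes were 0.35 ± 0.14, -0.15 ± 0.08 and -0.02 ± 0.11 (limma adjusted p = 0.0665, 0.208 and 0.906), and the mean of the 3 was 0.06 ± 0.09. With quantile scaling 1421012_at passed as higher (0.50, limma adjusted p = 0.0223), as it did with arrays centred on their tested probe sets (0.48, limma adjusted p = 0.0215). With spike-in scaling it did not (0.21, limma adjusted p = 0.266). The 1421012_at value passed in the upward direction without 4.5SH_KD replicate 2 (0.54, limma adjusted p = 0.0241), and was at 0.17 without 4.5SH_KD replicate 1 (limma adjusted p = 0.496).

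Over Srp9, Srp19, Srp68, Srp72, Srpr and Srprb together, 0 of 10 tested probe sets passed by limma after adjustment. At an unadjusted p under 0.05 there were 5. Of these, 3 were lower (Srp9 1448753_at, Srp68 and Srpr) and 2 higher (Srp72 1428876_at and Srprb 1421012_at). The largest of these 5 p-values (limma unadjusted p = 0.0458, Srp9 1448753_at) held rank 9779 among all 22525 tested probe sets, so such values were common. The direction of the small differences moved with the scaling of the arrays. With quantile scaling the values of Srp9, Srp19 and Srp68 lay between 0.02 and 0.06, above 0, and none passed, while with spike-in scaling they lay between -0.31 and -0.26 and all passed as lower.

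**Figure D2:**
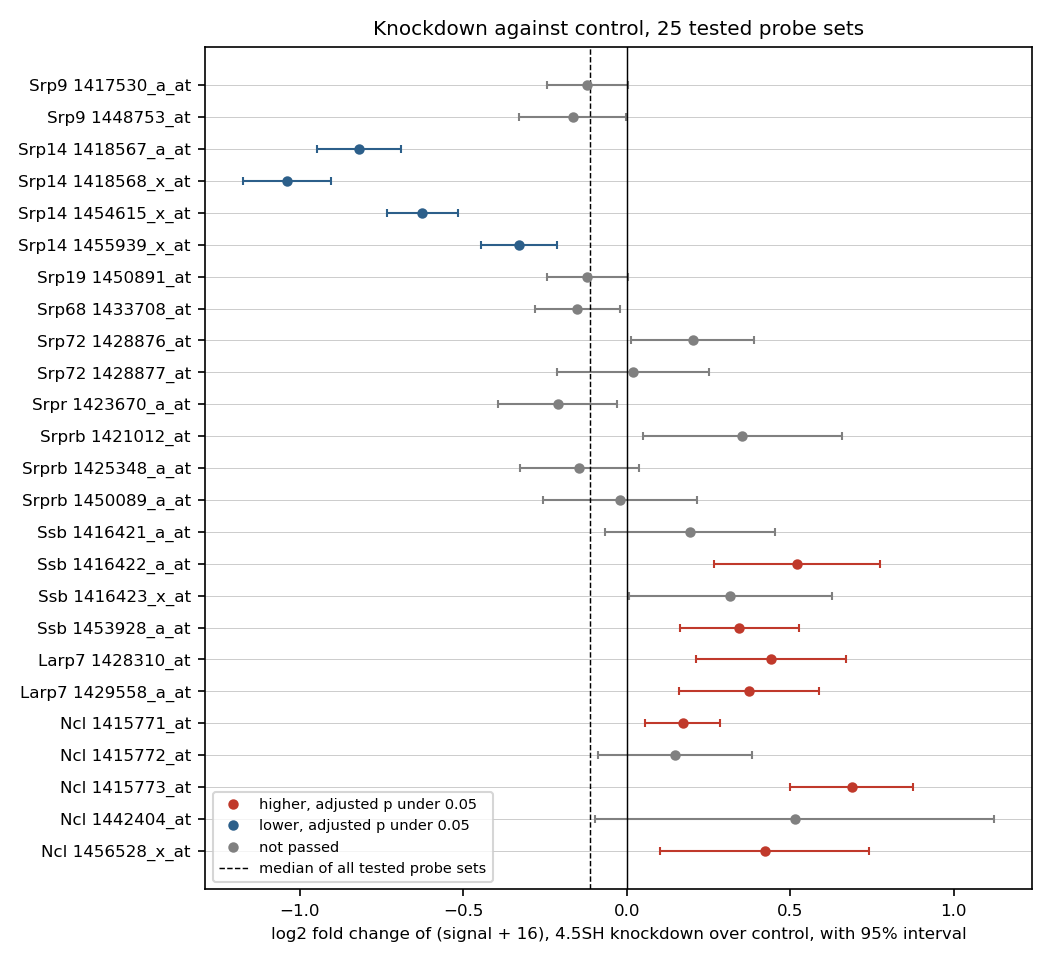
Log2 fold change of each of the 25 tested probe sets (horizontal, knockdown over control) with its 95% interval from limma, blue where lower, red where higher and grey where the adjusted p was not under 0.05. Srp14 alone lies to the left of -0.3, and the points of Ssb, Larp7 and Ncl all lie to the right of 0, from 0.15 to 0.69.

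Ssb, the gene of the La protein, was above the control at each of its 4 probe sets and passed at 2. At 1416422_a_at the signal was 249.7 and 310.2 in the knockdown, against 185.6 and 193 in the control, a log2 fold change of 0.52 ± 0.12 (SE, limma adjusted p = 0.00362). At 1453928_a_at, the brightest, it was 618.8 and 681.7 in the knockdown, against 522.9 and 494.5 in the control, a log2 fold change of 0.34 ± 0.08 (SE, limma adjusted p = 0.00590). Replicate 2 of the knockdown was the higher array at both, and without it neither passed (0.37 and 0.28, limma adjusted p = 0.0665 and 0.0732). The remaining probe sets, 1416421_a_at and 1416423_x_at, had log2 fold changes of 0.19 ± 0.12 and 0.32 ± 0.14 and did not pass (limma adjusted p = 0.242 and 0.106). Their signals were 155 and 173.5 in the knockdown against 141 and 142.1 in the control, and 179.8 and 192.3 in the knockdown against 122.9 and 173.3 in the control. Without Control replicate 2, 1416423_x_at also passed (0.54, limma adjusted p = 0.0116), while without Control replicate 1 it was at 0.09 (limma adjusted p = 0.673). With spike-in scaling 1453928_a_at did not pass (0.20, limma adjusted p = 0.177), nor without the intensity trend (limma adjusted p = 0.0708). The mean of the 4 gave 0.34 ± 0.10 (limma adjusted p = 0.0115, over 11814 genes).

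Larp7, which protects the 7SK RNA that restrains the elongation kinase Cdk9, rose at both of its probe sets by similar amounts. At 1428310_at the signal was 288 and 312.9 in the knockdown, against 205 and 229.3 in the control, and at 1429558_a_at it was 493.9 and 450.3 in the knockdown, against 388.8 and 334 in the control. The groups did not overlap at either. Log2 fold changes were 0.44 ± 0.11 and 0.37 ± 0.10 (SE, limma adjusted p = 0.00523 and 0.00923), and mean signal was 38.4% and 30.6% above the control. With spike-in scaling they were 0.30 and 0.23 and did not pass (limma adjusted p = 0.0780 and 0.133). The first did not pass without 4.5SH_KD replicate 2 (limma adjusted p = 0.0569), and the second without 4.5SH_KD replicate 1 (0.0906) or Control replicate 2 (0.0872).

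Ncl had 5 probe sets, all with a positive fold change, of which 3 passed. The largest passing rise was at 1415773_at, with 1224.7 and 1479.2 in the knockdown against 796.3 and 864.5 in the control, a log2 fold change of 0.69 ± 0.09 (SE, limma adjusted p = 4.34e-05). The brightest, 1415771_at, read 3795.5 and 3951.1 in the knockdown against 3311.5 and 3568.3 in the control, a log2 fold change of 0.17 ± 0.05 (adjusted p = 0.0230). Their 95% intervals, 0.50 to 0.88 and 0.06 to 0.29, did not meet, so probe sets of this gene too differed in the size of the change. The third, 1456528_x_at, read 174.3 and 240.7 in the knockdown against 134.7 and 164.5 in the control, a log2 fold change of 0.42 ± 0.15 (adjusted p = 0.0397). Not passing were 1415772_at, with 240.2 and 257 in the knockdown against 237 and 209.1 in the control (0.15 ± 0.11, adjusted p = 0.322), and the dim 1442404_at, with 21.8 and 31.9 in the knockdown against 6.9 and 22.8 in the control (0.51 ± 0.28, adjusted p = 0.182). Only the rise at 1415773_at passed in each alternative. Without 4.5SH_KD replicate 2 the log2 fold changes of 1415771_at and 1456528_x_at were 0.14 and 0.21, without Control replicate 1 they were 0.12 and 0.29, with spike-in scaling they were 0.03 and 0.28, and none of these passed. Without 4.5SH_KD replicate 1, 1415771_at did not pass (0.20, limma adjusted p = 0.0539), and without Control replicate 2 the dim 1442404_at did (0.89, limma adjusted p = 0.0424), against 0.13 without Control replicate 1 (limma adjusted p = 0.776).

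The promoters of the 3 genes that rose are given for comparison with that of Srp14, with the same window and the same motifs in capitals. They lie at chr2:69861312-69861611 on the plus strand (Ssb), chr3:127553300-127553599 on the minus strand (Larp7) and chr1:86359406-86359705 on the minus strand (Ncl) of GRCm38.p6, as given by RefSeq.
Ssb: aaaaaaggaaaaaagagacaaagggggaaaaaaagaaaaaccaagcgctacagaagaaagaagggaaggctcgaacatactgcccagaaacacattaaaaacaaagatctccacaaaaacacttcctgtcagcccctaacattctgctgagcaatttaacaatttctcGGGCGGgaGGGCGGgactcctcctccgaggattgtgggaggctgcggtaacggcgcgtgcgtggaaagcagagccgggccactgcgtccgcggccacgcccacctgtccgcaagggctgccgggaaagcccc
Larp7: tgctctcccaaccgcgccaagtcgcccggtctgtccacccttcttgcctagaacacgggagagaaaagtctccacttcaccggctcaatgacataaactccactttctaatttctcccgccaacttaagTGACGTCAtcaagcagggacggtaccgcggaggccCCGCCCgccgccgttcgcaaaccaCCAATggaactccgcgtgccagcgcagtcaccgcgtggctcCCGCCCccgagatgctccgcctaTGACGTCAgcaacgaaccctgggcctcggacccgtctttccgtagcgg
Ncl: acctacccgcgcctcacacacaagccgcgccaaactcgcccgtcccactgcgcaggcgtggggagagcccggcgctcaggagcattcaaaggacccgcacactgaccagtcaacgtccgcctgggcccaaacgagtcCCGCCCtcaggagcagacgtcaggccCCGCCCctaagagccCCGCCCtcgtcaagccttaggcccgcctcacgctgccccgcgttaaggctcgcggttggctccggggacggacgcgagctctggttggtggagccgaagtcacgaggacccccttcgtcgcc
The GGGCGG box was found 2 times in Ssb, 2 times in Larp7 and 3 times in Ncl, and in 6 of the 8 member windows searched. Larp7 also held the CCAAT box 1 time, found in 37.4% of all windows, and the cyclic AMP response element 2 times, found in 1.79% of all windows. The TATAAA box and the E-box CACGTG were in none of the 8, and in 13.6% and 7.15% of all windows. A match describes these letters only.

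How the arrays are scaled set how many members passed. The trimmed mean signal was 128 and 133 on the knockdown arrays and 149 and 144 on the control arrays, while the mean log2 signal over 9 hybridization spike-in probe sets was 9.86 and 9.76 in the knockdown, against 9.71 and 9.62 in the control. Over all tested probe sets the median log2 fold change, -0.11 as deposited, became -0.0011 with quantile scaling, 0.02 when each array was centred on its tested probe sets and -0.25 with spike-in scaling. Quantile scaling then split all tested probe sets into 3817 higher and 3768 lower, the centring into 3773 and 3985 and spike-in scaling into 1042 and 8008, against 2199 and 5811 as deposited. Among the members 12 were higher and 4 lower in either of the first 2 settings, and 2 higher and 9 lower with spike-in scaling. The 4 probe sets of Srp14, Ssb 1416422_a_at and Ncl 1415773_at passed in the same direction under each of the 5 scalings. As deposited and with quantile scaling, every tested Srp14 probe set lay below the median of all tested probe sets. Every tested probe set of Ssb, Larp7 and Ncl lay above it. Centring and spike-in scaling shift all probe sets of an array alike, so this order cannot change with them.

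**Figure D3:**
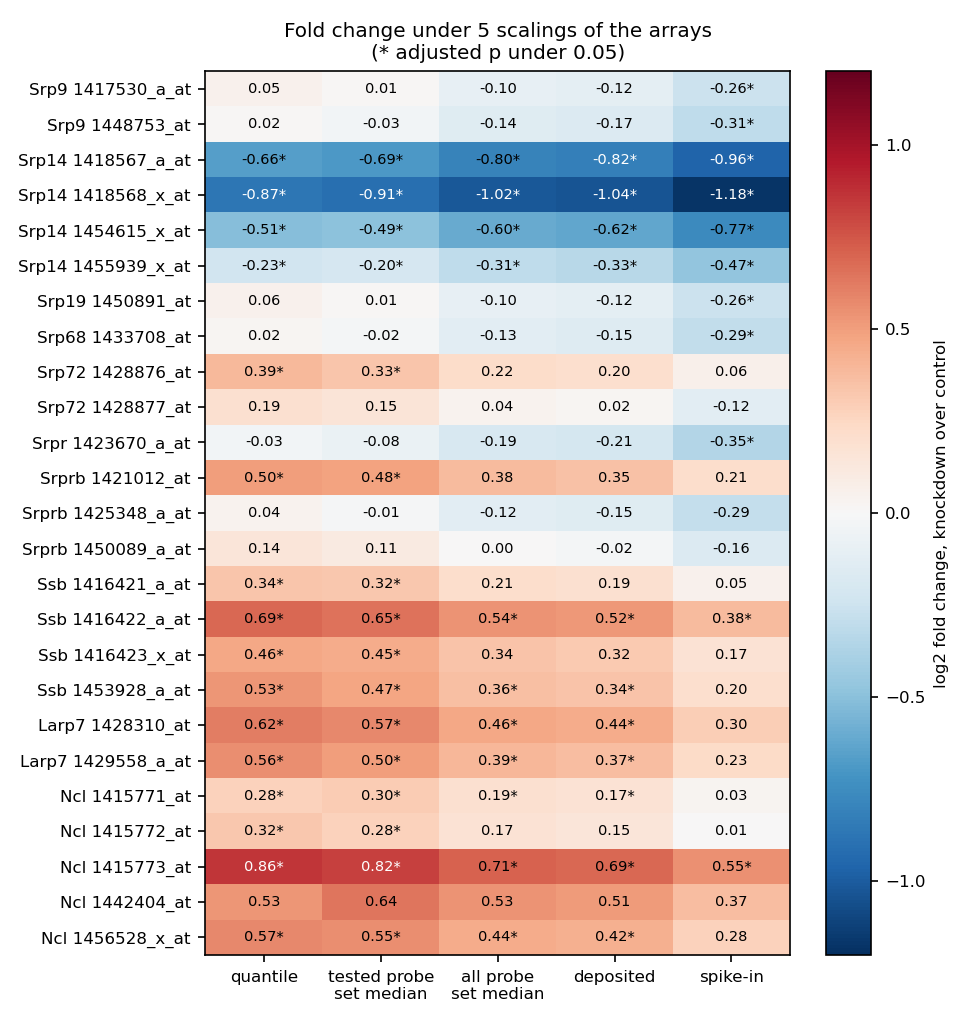
Log2 fold change (knockdown over control) of the 25 tested probe sets under 5 scalings of the arrays, in columns, with a star where the limma adjusted p was under 0.05. The 4 Srp14 rows carry a star in each column, Ssb 1416422_a_at and Ncl 1415773_at also do, and the rows of Srp9, Srp19 and Srp68 turn from slightly above 0 with quantile scaling to starred values below -0.25 with spike-in scaling.

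Other genes of the same pathways were looked up in 4 lists set by function. Srp54, the GTPase subunit that grips the signal peptide, is encoded by near-identical mouse genes, so their probe sets are uncertain. The only probe set with 1 symbol, 1430476_at for Srp54b, was dim, with 37.9 and 31.8 in the knockdown against 11.7 and 19.6 in the control, and rose by 0.69 ± 0.23 on the log2 scale (limma adjusted p = 0.0329). A probe set shared by Srp54a, Srp54b and Srp54c, 1425665_a_at, read 400.4 and 432.9 in the knockdown against 293.3 and 361.3 in the control (0.34 ± 0.11, limma adjusted p = 0.0240). Another, 1416153_at, was at 0.18 ± 0.08 and did not pass (limma adjusted p = 0.0905), and 1416154_at was below the filter, at 1.6 and 0.3 in the knockdown against 11.7 and 10.8 in the control. All 3 tested probe sets thus lay above the control, but the rise of Srp54b did not pass without 4.5SH_KD replicate 1 (0.61), without 4.5SH_KD replicate 2 (0.78) or without Control replicate 1 (0.51), nor with spike-in scaling, without the filter or at an adjusted p of 0.01. Its size was 1.14 with a pseudocount of 1 and 0.31 with one of 64.

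Downstream of the SRP receptor, the translocon and signal peptidase list had 37 tested probe sets of 16 genes, of which 12 were lower, 3 higher and 22 did not pass. Thus 40.5% passed, near the 35.6% of all tested probe sets, of which 25.8% were lower and 9.76% higher. The median log2 fold change of the list was -0.04, beside -0.11 over all tested probe sets. The list's median was 0.12 with quantile scaling (12 higher, 9 lower) and 0.09 with the centring above (11 higher, 11 lower). Sec61a2, a channel subunit, fell at both probe sets and read 1354.6 and 1442.5 in the knockdown at 1449944_a_at, against 2096.3 and 2114.5 in the control (-0.59 ± 0.06, limma adjusted p = 9.13e-06). Other channel subunits differed, as Sec61b fell (-0.42 ± 0.06) and Sec61a1 did not pass at any tested probe set (from -0.18 to 0.23). Sec11a, a catalytic subunit of signal peptidase, read 1403.6 and 1458.6 in the knockdown against 2117.6 and 2048.1 in the control (-0.54 ± 0.06, limma adjusted p = 1.60e-05). Against most calls of the list, the signal peptidase subunit Spcs3 rose by 0.59 ± 0.08 and Tram1, a membrane protein beside the channel, by 0.40 ± 0.08. Sec63, a partner of the channel, was lower at 2 probe sets and higher at 1, so its probe sets did not give 1 direction. The clearest of these, 1452854_at, read 93 and 82.6 in the knockdown against 199.5 and 184.3 in the control (limma adjusted p = 4.58e-05).

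Of 25 tested probe sets for La-related, Ro and 7SK proteins, 9 were higher, 3 lower and 13 did not pass. Thus 48% passed, beside 35.6% of all tested probe sets, of which 9.76% were higher and 25.8% lower. The median was 0.16. It was 0.24 with quantile scaling (11 higher, 1 lower), 0.29 with the centring above (11 higher, 1 lower) and 0.015 with spike-in scaling (6 higher, 4 lower). Larp4, which binds poly(A), rose by 0.82 ± 0.08 at 1455102_at, with 641.4 and 646.1 in the knockdown against 355.6 and 361.5 in the control (limma adjusted p = 7.70e-06). It also rose at 1437177_at (0.74 ± 0.13), but not at 1439010_at (0.03 ± 0.09, limma adjusted p = 0.811). The latter read 585.7 and 588 in the knockdown against 617.5 and 532.9 in the control. Larp4b rose by 0.84 ± 0.09 at 1434598_at, with 705.5 and 741.8 in the knockdown against 431.3 and 366 in the control (limma adjusted p = 1.42e-05). Among the proteins that meet Larp7 on 7SK RNA, the kinase inhibitor Hexim1 rose at 1 of 2 probe sets (0.40 ± 0.09), whereas the kinase Cdk9 fell at 1 of 2 (-0.39 ± 0.11). Of the kinase's cyclins, Ccnt2 fell at 2 of 5 (-0.55 and -0.60) and Ccnt1, named after its values were seen, rose at both of its probe sets (0.57 and 0.47). Mepce and Hexim2, also of this list, did not pass at any tested probe set (-0.11 and 0.09 for Mepce, 0.12 and 0.16 for Hexim2). The 3 lower calls of the list, of Cdk9 and Ccnt2, were 0 without Control replicate 2, without the filter and without the intensity trend, and 1 without 4.5SH_KD replicate 1, with quantile scaling and with arrays centred on tested probe sets. The 9 higher calls were 6 without 4.5SH_KD replicate 1, 5 without 4.5SH_KD replicate 2 and 5 without Control replicate 1.

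In the list of nucleolar partners, proteins of small nucleolar ribonucleoproteins beside Npm1, 8 of 15 tested probe sets were lower, 4 higher and 3 did not pass. Thus 80% passed, beside 35.6% of all tested probe sets, of which 25.8% were lower and 9.76% higher. The list had a median of -0.22. The median was -0.05 with quantile scaling, -0.09 with the centring above, -0.06 without _x_at and _s_at probe sets and -0.36 with spike-in scaling. Fbl, the RNA methyltransferase fibrillarin, read 1542.6 and 1685.3 in the knockdown at 1416685_s_at, against 2679.3 and 2646.8 in the control (-0.72 ± 0.06, limma adjusted p = 1.78e-06). Gar1, a protein of the pseudouridine-forming particles, fell by 0.60 ± 0.06 and Nop56, a scaffold of the methylating ones, by 0.40 ± 0.05 at its brighter probe set. Nop58, the partner of Nop56, rose by 0.39 ± 0.08, and Dkc1, the pseudouridine synthase, rose at 3 of 3 probe sets (0.27 to 0.50). The 4 higher calls were 1 without 4.5SH_KD replicate 1, without the intensity trend and with spike-in scaling, and 2 without Control replicate 2. So the higher level of Ncl stood beside both lower and higher members of this list. Over the 4 lists 17 of 78 tested probe sets were higher and 23 lower, beside 9.76% and 25.8% of all tested probe sets. Without 4.5SH_KD replicate 1 the higher ones were 10, and without 4.5SH_KD replicate 2 they were also 10.

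**Figure D4:**
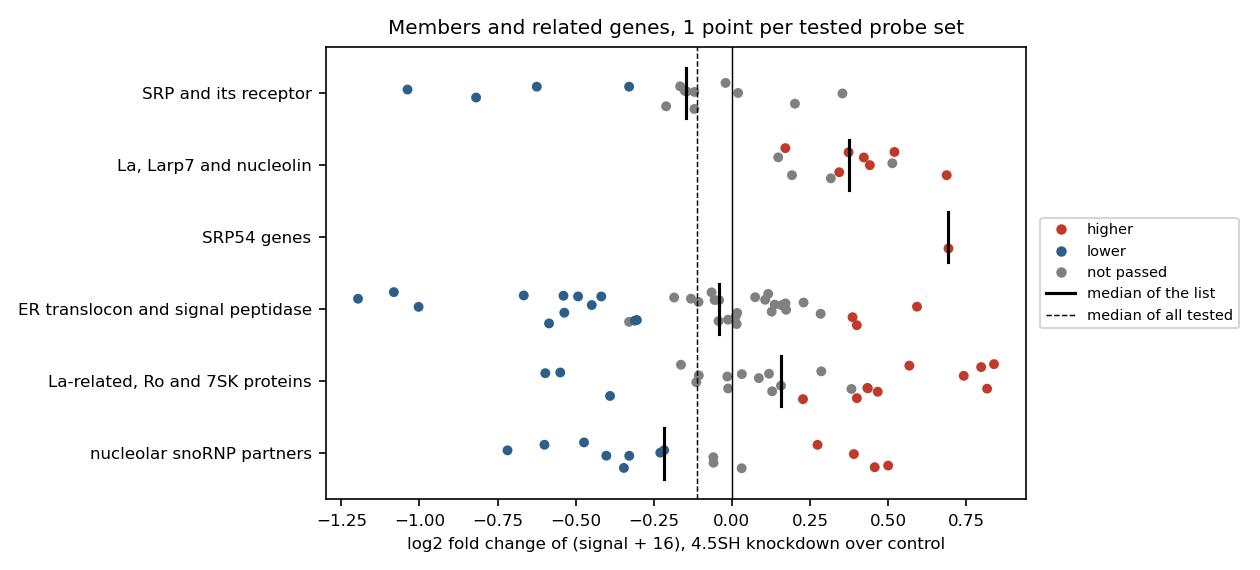
Log2 fold change (horizontal, knockdown over control) of each tested probe set of the members, in the top 2 rows, and of the 4 related lists, with a bar at each list's median and a dashed line at the median of all tested probe sets. The SRP and receptor row has its median at -0.15 with the 4 Srp14 points among the lowest, the Ssb, Larp7 and Ncl row has its median at 0.37, and the translocon, La-related and nucleolar rows hold points that passed on both sides of 0.

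The identity of the cells and the state of the arrays were looked at through marker lists. Of the 11 sympathoadrenal markers 9 had a probe set with 1 symbol and 7 a tested one. Among them Phox2a read 1068.6 and 1070.2 in the knockdown against 1247.7 and 1267.8 in the control, and Hand2, Gata2, Isl1, Chga and Chgb were above the filter, whereas Th and Gata3 were below it and Dbh was near it. Of 37 probe sets for leukocyte, fibroblast, epithelial, endothelial and glial markers 14 were above the filter, and the defining leukocyte marker Ptprc was at most 8.1. The summed leukocyte markers, mostly Cd68, read 413 and 437 in the knockdown against 716 and 812 in the control. The summed endothelial markers read 98.8 and 111 in the knockdown against 171 and 149 in the control. Their fall was in Pecam1, which passed as lower (-0.88, limma adjusted p = 0.000551). The Cdh5 and Kdr probe sets were below the filter and had higher means in the knockdown. These were 13.6 against 8.75 and 6.8 against 3.35 for Cdh5, and 18.2 against 11.35 for Kdr. The glial markers summed to 126 and 171 in the knockdown against 192 and 224 in the control, with 1 Mbp probe set (-0.87, limma adjusted p = 0.0159) passing as lower. The fibroblast sums were 139 and 144 in the knockdown against 135 and 138 in the control, and the epithelial ones 145 and 127 in the knockdown against 146 and 81.3 in the control. The part of these cell types in the results was not tested. Of 23 probe sets for the nuclear RNAs Malat1, Neat1, Xist and Meg3, 11 were above the filter, 2 of them higher and 3 lower. Malat1 1429060_at read 76.1 and 50.2 in the knockdown against 433.8 and 417.2 in the control (-2.50 ± 0.15, limma adjusted p = 9.75e-08), whereas Malat1 1418189_s_at was higher (0.93 ± 0.26). Xist 1427262_at read 164.3 and 190.9 in the knockdown against 15.3 and 12.5 in the control (2.69 ± 0.17, limma adjusted p = 1.46e-07). The other tested Xist probe sets, 1427263_at and 1436936_s_at, did not pass (0.22 and 0.17, limma adjusted p = 0.540 and 0.553). RNAs known from the nucleus were thus detected, and some of their probe sets differed between the groups, in both directions. All 23 summed to 612 and 599 in the knockdown against 807 and 807 in the control. The fall at Malat1 1429060_at alone was larger than the fall of this sum, so the sum gives no direction for these RNAs as a class. The part of nuclear RNAs in the results was not tested. Signal at the 3' end of Gapdh divided by that at its 5' end gave 0.833 and 0.787 in the knockdown, against 0.884 and 0.861 in the control. For Actb this ratio was 2.47 and 2.49 in the knockdown, against 2.60 and 2.78 in the control. The control probe sets for 18S ribosomal RNA had lower means in the knockdown, 357, 338 and 168.5 against 462, 714 and 304 in the control. Their part in the results was not tested.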

How the data were processed

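Poly(A)+ RNA of the cytoplasmic fraction of Neuro2A cells was hybridised to 4 mouse Affymetrix arrays, 2 of 4.5SH knockdown and 2 of control cells, grouped by their titles. The submitters' processing notes name MAS5, and the deposited table holds its linear signal, an intensity for each probe set and array. No version, scaling target or filter is given in those notes. The authors pooled no replicates, per the file headers.

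Apart from controls the array had 45037 probe sets. The annotation gave 34945 of them a single gene symbol, 932 more than 1 and 9160 no symbol, and a gene was named only from a single symbol. The scale used was log2(signal + 16), unscaled beyond the deposit, which understates the fold change of a dim probe set. Probe sets whose mean signal was at or above the median of all (16.9) were tested, 22525 in all. The test was limma 3.58.1 (R 4.3.3), two-sided, with eBayes variances trended on intensity and 13.6 degrees of freedom in all, adjusted by the Benjamini-Hochberg method over all tested probe sets at 0.05. Values after ± are standard errors on 2 against 2 arrays, and their number limits the precision. Probe sets of 1 gene share arrays and RNA and are not replicates.

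The members and lists were chosen with earlier results of these data known. The text names every member probe set, up to 3 genes of each list by smallest p and those passing against the list's direction. Sec61a1, Sec61b, Mepce and Hexim2 were named after their values were seen. Figures were made with matplotlib 3.10.9 in Python 3.11.15. Promoter sequences came from RefSeq (GRCm38.p6), where 8 of the 10 members were used. Alternatives were other pseudocounts, scalings, filters, features and thresholds, a fit without the trend, a replicate block and leaving out each array. The fit was also run on simulated data with independent noise, few changed probe sets and no shift between arrays. Those settings differ from these data, so that run cannot tell how reliable the calls here are.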

Additional observations from a re-analysis of the deposited data

How the results depend on the processing

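Only 2 arrays a group, and dim signal at Srpr 1427570_at and Ncl 1442404_at, limit what can be seen. The cause of the changes below was not tested, except that some settings count fewer features by construction. These are the settings with 1 value per gene, the one without _x_at and _s_at probe sets and the one with only the brightest 25% of probe sets. Over the 15 alternatives run on single probe sets, Srp14 1418567_a_at, 1418568_x_at and 1454615_x_at and Ncl 1415773_at kept their direction and call in each, and no probe set of Srp14, Ssb, Larp7 or Ncl changed direction. All probe sets counted as higher and lower, members counted likewise, and those of the related lists, were 2199 and 5811, 7 and 4, and 17 and 23. With quantile scaling they were 3817 and 3768 in all, 12 higher members and 29 higher in the lists. With arrays centred on their tested probe sets 3773 were higher in all, with 12 members and 28 in the lists. With spike-in scaling 1042 were higher, with 2 members and 8 in the lists, and 9 members were lower. Without the filter 1241 were higher, with 4 members and 9 in the lists. With only the brightest 25% of probe sets 1564 were higher and 4793 lower in all, with 8 higher and 6 lower members. Among these members Srp68, Srpr 1423670_a_at and Srprb 1421012_at passed (limma adjusted p = 0.0448, 0.0439 and 0.0461), the last as higher. Without the intensity trend 1354 were higher and 3778 lower, with 3 higher members, and 9 higher and 13 lower in the lists. At an adjusted p of 0.01, 1283 were higher in all and 9 in the lists. With _x_at and _s_at probe sets left out, which takes out every Srp14 probe set but 1418567_a_at, 1 member probe set was lower. With the brightest probe set of each gene 1162 genes were higher, with 3 members, and 9 higher and 11 lower in the lists. With the mean of a gene's probe sets 1078 genes were higher and 3716 lower, with 3 higher members, and 11 higher and 12 lower in the lists. In both gene settings Srp68 and Srpr passed as lower beside Srp14. Leaving out each array in turn gave 1200 to 1976 higher and 4297 to 5265 lower in all, 3 to 8 higher and 4 to 5 lower members, and 10 to 12 higher and 19 to 20 lower in the lists. With the replicate block 2399 were higher and 6123 lower, with 8 higher and 4 lower members, and Srprb 1421012_at passed. Deviations of same-numbered replicates correlated at 0.0071 over tested probe sets. With 2 arrays a group this cannot decide whether same-numbered arrays shared a day or a transfection.

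Values that did not pass changed sign as follows. With quantile scaling Srp9 was at 0.052 (1417530_a_at) and 0.017 (1448753_at), Srp19 at 0.056, Srp68 at 0.021 and Srprb at 0.045 (1425348_a_at) and 0.14 (1450089_a_at). With arrays centred on their tested probe sets Srp9 1417530_a_at and Srp19 were each at 0.011 and Srprb 1450089_a_at at 0.11, and with centring on all of them the last was at 0.0010. Srp72 1428877_at was at -0.12 with spike-in scaling. With each array left out in turn it ran from -0.063 without Control replicate 2 to 0.10 without Control replicate 1, and was -0.03 without 4.5SH_KD replicate 1. Srprb 1450089_a_at ran from -0.10 without Control replicate 1 to 0.061 without Control replicate 2. The translocon median turned to 0.12 with quantile scaling, 0.088 with the centring on tested ones and 0.012 without the filter.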

Other observations

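The array carries control probe sets named for the B1 and B2 repeat families, which the comparison of genes leaves out. The B1 control, named for the repeats descended from the RNA of the SRP, read 11743.8 and 11040.1 in the knockdown against 10840.5 and 10263.2 in the control. The groups did not overlap, and the mean signal was 8.0% higher in the knockdown. The 2 controls named for B2 read 11243 and 11029.3 in the knockdown against 12007.8 and 10666.9 in the control, which overlapped, and 2109.2 and 2239.9 in the knockdown against 1819 and 1781.5 in the control, which did not. No test was made, because control probe sets stood outside the fit.

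Srp14 and Ncl each had probe sets whose changes differed by more than their intervals. In Srp14 the fall was smaller at the brighter probe sets, -0.33 at the brightest against -1.04 at the dimmest by mean signal over the 4 arrays. In Ncl the brightest probe set rose by 0.17 and the next brightest by 0.69. Which transcript ends or forms these probe sets read was not analysed here.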
